A study of Mus musculus with 8 samples.

Results

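The genes described here are 10 markers of mammary and other keratin-bearing epithelium, *Epcam*, *Krt5*, *Krt7*, *Krt8*, *Krt14*, *Krt15*, *Krt18*, *Krt19*, *Cldn4* and *Elf5*, taken by gene name from a table of 54532 genes. Counts per gene came from 8 RNAseq libraries of GFP+ cells sorted by FACS from female mice aged 8 months. The study compared EC-*Tert*-KO mice (Tie2e-cre; TERTfl/fl; mTmG) with WT mice (Tie2e-cre; TERT+/+; mTmG). Every group thus carried the Tie2e-cre transgene, driven by an endothelial promoter fragment, and the reporter that turns cells from membrane Tomato to membrane GFP after recombination. The 4 pairs of KO and WT libraries came from subcutaneous adipose tissue (SAT) on a high-fat diet (HFD), SAT on chow, visceral adipose tissue (VAT) on chow and gastrocnemius muscle on chow, with 1 library per genotype in each pair. Whether cells of several mice were pooled is not stated.

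Keratins are the intermediate filament proteins of epithelial cells and assemble as pairs of a type I and a type II chain. *Krt8* (type II) with *Krt18* or *Krt19* (type I) forms the filaments of simple, luminal epithelium, and *Krt5* (type II) with *Krt14* or *Krt15* (type I) those of basal and stratified epithelium. The mammary gland of the mouse grows within subcutaneous fat, as ducts with an inner luminal layer and an outer basal layer.

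Library totals ranged from 6214269 to 18855772 counts, so that 3 counts, used as the floor for bounds, stood for 0.181 to 0.451 CPM (counts in units of 1e6 after TMM scaling of the libraries). The targeted gene, *Tert*, had 114 counts (WT) against 0 (KO) on HFD in SAT, 70 against 11 on chow in SAT, and 24 against 7 in muscle. In VAT the WT library had 3 counts and the library labelled KO 9, so the label of that pair was not borne out by *Tert* and its direction is given for the labels only. All 12 endothelial markers had counts in all 8 libraries, with a summed level of 350.2 to 708.2 CPM in the SAT libraries and 1822 to 2590 CPM in VAT and muscle. The 10 leukocyte markers were also present in every library, from 3189 to 20310 CPM in sum, so that leukocyte transcripts stood beside endothelial ones in the sorted cells. The 10 stromal markers summed to 962.8 to 3528 CPM in the SAT libraries and 880.4 to 2464 CPM in VAT and muscle.

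The genes lie on 5 chromosomes of the mouse genome (GRCm38). *Krt5* (chr15:101707070-101712898), *Krt7* (chr15:101411043-101430313), *Krt8* (chr15:101996698-102004482) and *Krt18* (chr15:102028180-102032027) are on chromosome 15, where *Krt8* on the minus strand and *Krt18* on the plus strand point away from each other with 23697 bases between them. *Krt15* (chr11:100131758-100135928), *Krt19* (chr11:100140810-100148665) and *Krt14* (chr11:100203162-100207548) are on chromosome 11, with 4881 bases between *Krt15* and *Krt19*. *Epcam*, a homophilic adhesion molecule of epithelial cells, is at chr17:87635979-87651106. *Cldn4*, a tight junction claudin, is at chr5:134945119-134946934, and *Elf5*, a transcription factor of luminal alveolar progenitors, is at chr2:103411688-103450989. Of the rows that overlap these genes, the antisense gene over *Krt7* had at most 7 counts in a library, the long noncoding gene over *Krt8* at most 3, and the *Krt8* pseudogene, elsewhere in the genome, had at most 2. Keratins of similar sequence, such as *Krt17* beside *Krt14*, could also share reads, and their counts are given with the other keratin genes.

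The promoters are shown for the partner genes *Krt8* and *Krt18* and for the surface and junction genes *Epcam* and *Cldn4*, because these genes stood highest per length in SAT on chow, described below, together with *Krt19*, which has no entry in the table. Each line gives the 100 bases before the most upstream annotated start, 5′ to 3′ on the gene's strand, from RefSeq (GRCm38.p6). Capitals mark the motifs searched for on both strands.
Krt8 (chr15:102004483-102004582, minus strand): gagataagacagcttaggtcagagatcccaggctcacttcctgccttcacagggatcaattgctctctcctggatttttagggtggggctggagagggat
Krt18 (chr15:102028080-102028179, plus strand): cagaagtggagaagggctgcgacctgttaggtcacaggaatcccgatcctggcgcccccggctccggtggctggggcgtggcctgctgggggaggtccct
Epcam (chr17:87635879-87635978, plus strand): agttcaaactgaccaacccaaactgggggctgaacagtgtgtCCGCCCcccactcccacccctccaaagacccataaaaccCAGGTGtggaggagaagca
Cldn4 (chr5:134946935-134947034, minus strand): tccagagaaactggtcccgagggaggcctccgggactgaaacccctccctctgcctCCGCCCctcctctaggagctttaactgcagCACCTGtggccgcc

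The motifs were the TATA box TATAAA, the GC box GGGCGG, the E-box CAGGTG, the AP-1 site TGANTCA and the Grainyhead-like site AACCGGTT, over the 250 bases before the start that the table gives. The table held promoters of 8 of the 10 genes, and 7 of them had an entry within 200 bases of a protein-coding start. None of these 7 held TATAAA, which 12.4% of all 32851 promoters held. An E-box was found at 6 of them (*Epcam*, *Krt5*, *Krt7*, *Krt8*, *Krt18* and *Cldn4*) and in 17.2% of all promoters. A GC box was found at *Epcam*, *Krt7* and *Cldn4* and in 32.7% of all promoters. The AP-1 letters occurred 2 times at *Cldn4* only and in 6.75% of all promoters, and the Grainyhead-like letters at none of the 7 and in 0.116%. These matches describe letters in the window and were not tested as binding sites.

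The 10 genes were highest in SAT on chow. Their summed level was 331.0 CPM (95% counting interval 322.3 to 339.9) in the WT library and 313.2 CPM (304.8 to 321.8) in the KO library of SAT on chow. In SAT on HFD it was 27.4 CPM (WT) and 54.3 CPM (KO), in VAT 9.41 and 8.25 CPM, and in muscle 40.6 and 14.9 CPM. Both SAT chow libraries therefore stood above the other 6, and every gene had counts in both of them. In all other libraries at least 1 of the 10 genes was at 0, from 1 in muscle WT to 5 in the VAT library labelled KO. For 9 of the 10 genes (8 of the 9 whose counts averaged 10 or more over the libraries) both SAT chow libraries lay above all 6 others, the exception being *Elf5*. Of all 16971 genes at that limit, 4.28% did so. *Krt5* and *Elf5* reached the limit only through their SAT chow counts, since without that pair 7 of the 9 genes reached it. The counts and medians over the 9 tested genes below include both, and are in that part set by the limit.

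**Figure D1:**
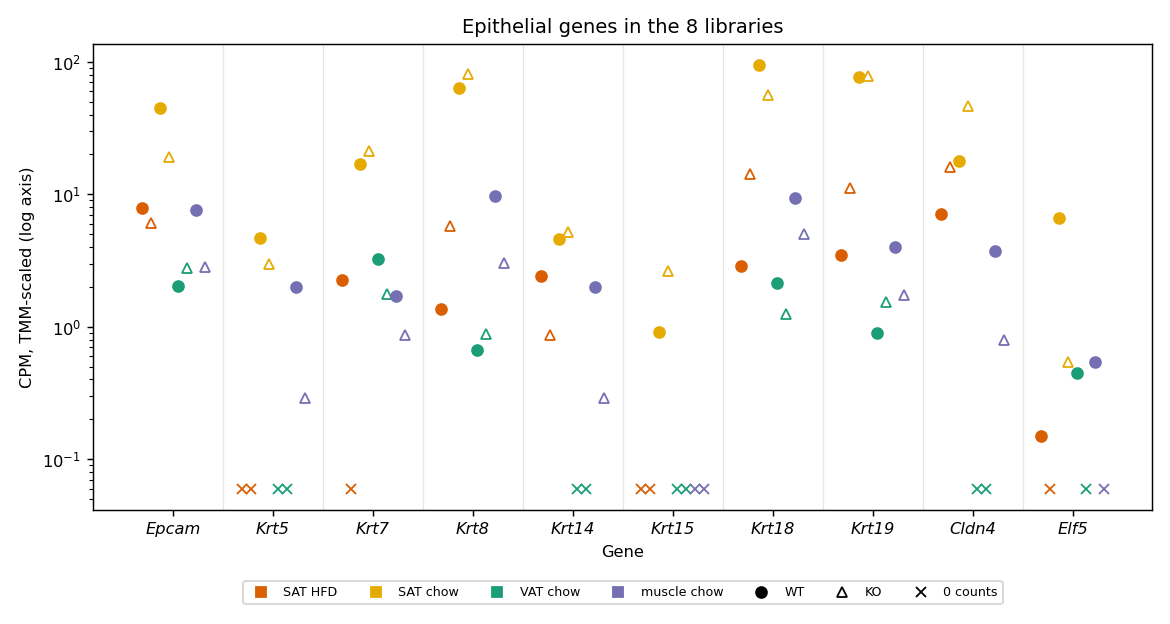
Level of each gene (CPM after TMM scaling, log axis) in each of the 8 libraries, with filled circles for WT, open triangles for KO, colours for tissue and diet, and crosses below for libraries with 0 counts. The SAT chow libraries lie highest for 9 of the 10 genes, and *Elf5* has only the WT library of SAT on chow apart from the rest, at 6.59 CPM.

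**Figure D2:**
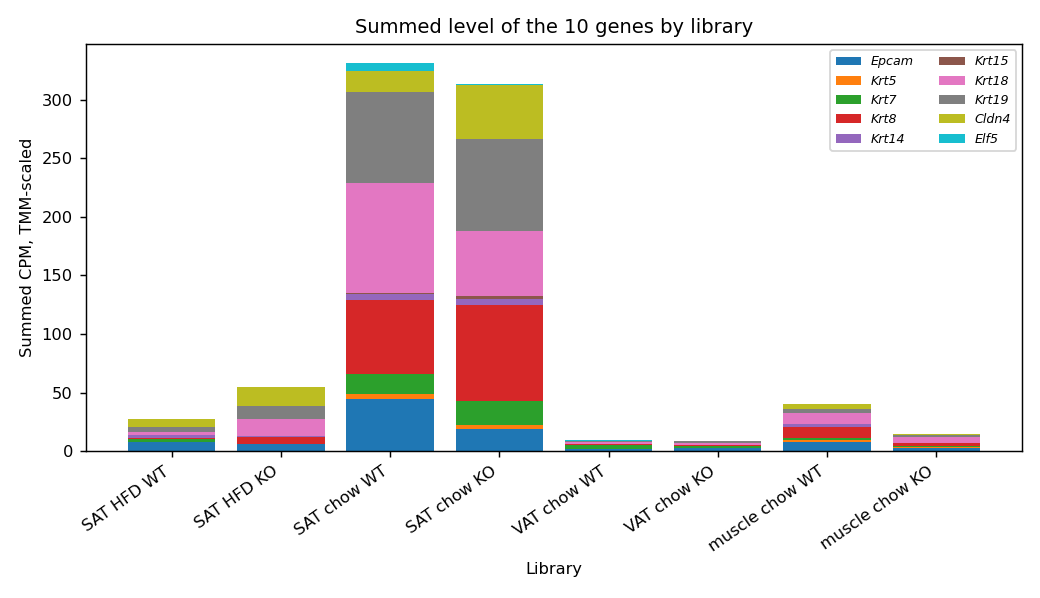
Summed CPM (TMM-scaled) of the 10 genes in each library, stacked by gene on an axis from 0. The SAT chow bars reach 331.0 and 313.2 CPM, and the highest of the other 6 libraries, SAT on HFD KO, reaches 54.3 CPM.

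The simple-epithelium keratins gave the largest share of these counts in SAT on chow. *Krt8*, a type II chain, had 1044 (WT) and 1350 (KO) counts in SAT on chow, against 9 and 73 in SAT on HFD, 6 and 12 in VAT, and 159 and 42 in muscle. *Krt18*, its type I partner, had 1561 and 927 counts in SAT on chow, 19 and 181 in SAT on HFD, 19 and 17 in VAT, and 155 and 69 in muscle. *Krt19*, the type I keratin without a tail domain, had 1280 and 1295 counts in SAT on chow, 23 and 140 in SAT on HFD, 8 and 21 for VAT, and 66 and 24 for muscle. For all 3 genes the SAT chow libraries did not overlap with any other, and the VAT libraries were the lowest 2 in CPM.

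*Krt7*, a type II keratin of ductal and glandular epithelium, had 281 (WT) and 351 (KO) counts in SAT on chow. It had 15 and 0 in SAT on HFD, 29 and 24 for VAT, and 28 and 12 for muscle. In VAT, *Krt7* was the member with the largest share of the summed counts in WT, 34.5%, whereas its share in the SAT chow libraries was 5.13% and 6.75%.

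The basal keratins were low per length, as given further on. *Krt5* had 78 (WT) and 49 (KO) counts in SAT on chow, 33 and 4 for muscle, and 0 in all 4 libraries of VAT and of SAT on HFD. *Krt14*, its type I partner, had 76 and 86 counts in SAT on chow, 16 and 11 in SAT on HFD, 33 and 4 for muscle, and 0 in both VAT libraries. *Krt5* and *Krt14*, on different chromosomes, thus had the same number of counts as each other in each muscle library. *Krt15*, a keratin of basal and hair follicle epithelium, had 15 and 44 counts in SAT on chow and 0 in the other 6 libraries. Together *Krt5*, *Krt14* and *Krt15* made up 3.09% and 3.44% of the summed counts of the 10 genes in the WT and KO libraries of SAT on chow. Their share was 9.85% in muscle WT and 8.79% in SAT on HFD WT, where *Krt14* alone gave it.

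The surface, junction and transcription factor genes differed from each other. *Epcam* had counts in all 8 libraries, with 735 (WT) and 316 (KO) in SAT on chow, 52 and 77 in SAT on HFD, 18 and 38 for VAT, and 125 and 39 for muscle. *Epcam* is also known from Langerhans and some dendritic cells, of which 8 marker genes summed to 150.5 to 524.0 CPM, highest in VAT. The Langerhans gene *Cd207*, chosen after its values were seen, had 25 and 42 counts in SAT on chow, 0 and 38 in SAT on HFD, 0 in both VAT libraries, and 2 and 0 in muscle. The part of such cells in the *Epcam* level was not tested.

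*Cldn4* had 296 and 770 counts in SAT on chow, 47 and 204 in SAT on HFD, 62 and 11 for muscle, and 0 in both VAT libraries. *Elf5* had 109 (WT) and 9 (KO) counts in SAT on chow, and 0 to 9 in the other 6 libraries. The 2 libraries of SAT on chow therefore lay far apart for *Elf5*, and the KO library, at 0.542 CPM, lay just under the muscle WT library at 0.546 CPM.

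Per length, the order of the genes in SAT on chow could be compared (CPM per kb of the exon length in the table). In WT the order was *Krt18* (65.7), *Krt19* (41.7), *Krt8* (32.2), *Epcam* (21.8) and *Cldn4* (9.86), with the other 5 genes from 0.513 to 2.61. In KO it was *Krt19* (42.1), *Krt8* (41.6), *Krt18* (38.9), *Cldn4* (25.6) and *Epcam* (9.34), with the other 5 from 0.0923 to 3.0. The same 5 genes led in both libraries and held 89.8% and 89.6% of the summed counts, but their order differed. *Krt18*, *Krt19* and *Krt8* exchanged places, so that no order among these 3 held over both libraries. The per-length levels of *Krt7* and *Elf5* rest on listed lengths of 7049 and 5877 bases, against 1437 to 2197 for the other 8 genes.

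The ratio of the partners *Krt8* to *Krt18*, per length, was 0.491 (95% counting interval 0.453 to 0.531) in WT and 1.07 (0.982 to 1.16) in KO for SAT on chow. It was 0.348 (0.139 to 0.806) and 0.296 (0.222 to 0.391) in SAT on HFD, 0.232 (0.0758 to 0.604) and 0.518 (0.226 to 1.15) for VAT, and 0.753 (0.60 to 0.945) and 0.447 (0.297 to 0.665) for muscle. The counting intervals of the WT and KO libraries were apart in SAT on chow and overlapped in each of the other 3 pairs. Over the 4 pairs, in a test chosen after these values were seen, the log2 ratio differed between KO and WT by 0.32 ± 0.97 (mean ± SD, n = 4 pairs, exact two-sided permutation p = 0.5, where 4 pairs allow no p under 0.125). It was higher in KO in 2 of the 4 pairs.

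The tissue question, whether the sorted cells of SAT held more of these transcripts than those of VAT or muscle, was tested with the WT and KO libraries of a tissue as its 2 samples. In SAT chow over VAT chow, 5 of the 9 tested genes were higher at an adjusted p under 0.05 and none was lower. Of all 16971 genes, 1.74% (296 genes) were called higher, and 561 genes were called lower. *Krt8* was higher by 6.51 ± 0.93 on the log2 scale (fitted difference ± SE, adjusted p = 0.0121). *Krt19* was higher by 5.99 ± 0.77 (adjusted p = 0.0092) and *Krt18* by 5.48 ± 0.88 (adjusted p = 0.016). *Epcam* was higher by 3.53 ± 0.68 (adjusted p = 0.0284). *Cldn4* passed the test as well (adjusted p = 0.0168), and since VAT had 0 counts its mean CPM in SAT on chow was at least 115.5-fold higher, against 3 counts per library.

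The remaining 4 tested genes had higher means in SAT on chow without passing the edgeR test. The DESeq2 Wald test called *Krt7* (adjusted p = 0.0492) and *Krt14* (adjusted p = 0.00069) of these, as did edgeR over all genes with at least 1 count (adjusted p = 0.0403 and 0.0134). Over the whole table these 2 settings called 2334 and 2116 genes in either direction, against 857 in the main fit. *Krt7* differed by 3.18 ± 1.35 (adjusted p = 0.238) and *Elf5* by 4.49 ± 1.995 (adjusted p = 0.257). *Krt14* and *Krt5*, at 0 in VAT, had mean levels at least 17.6-fold and 13.8-fold higher in SAT on chow, with adjusted p-values of 0.0824 and 0.153. *Krt15* had a mean of 7.38 counts, under the limit of 10, and was not tested. Its mean CPM was at least 6.39-fold higher in SAT on chow than in VAT. The median fitted difference over the 9 genes was 5.99, beside 0.08 over all genes tested. Without either VAT library none of the 5 calls remained, and without the WT library of SAT on chow those of *Krt8*, *Krt19* and *Cldn4* did. In such bulk samples, fewer cells of a type and less RNA per cell cannot be told apart. The sort kept GFP+ cells only, yet the stromal markers were above the endothelial ones in sum in all 4 SAT libraries. How far the gate left out other cells, and which cells carried these transcripts, was not tested.

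In SAT chow over muscle chow, all 9 tested genes had a positive difference, with a median of 3.44 beside 0.09 over all genes, and 1 of them passed the test, where 0.147% of all genes were called higher. This gene was *Krt19*, higher by 4.70 ± 0.71 (adjusted p = 0.0288). *Krt8*, by contrast, differed by 3.44 ± 0.79 (adjusted p = 0.097) and *Krt18* by 3.38 ± 0.78 (adjusted p = 0.0978). *Epcam* differed by 2.62 ± 0.64 (adjusted p = 0.114), and the other 5 had adjusted p-values from 0.196 to 0.784. The call of *Krt19* was lost without the WT library of SAT on chow (adjusted p = 0.0886) and without the KO library of muscle (adjusted p = 0.185). The DESeq2 Wald test called 6 of the 9 genes higher in SAT on chow, *Krt7*, *Krt8*, *Krt18*, *Epcam* and *Cldn4* beside *Krt19*. Over the whole table DESeq2 called 1014 genes in either direction, against 213 with edgeR.

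Between VAT and muscle the genes were at lower levels throughout than in SAT on chow, *Elf5* in the KO library excepted. In VAT chow over muscle chow none of the 9 genes passed the test, where 1.93% of all genes were called in either direction. The unadjusted p of the edgeR test was under 0.05 for 4 of the 9 and for 2162 of all 16971 genes. The DESeq2 Wald test called *Krt8* (adjusted p = 0.0056) and *Cldn4* (adjusted p = 0.001) lower in VAT, and edgeR over all genes with at least 1 count called these and *Krt18* (adjusted p = 0.0068). Over the whole table these settings called 1262 and 1166 genes, against 328 in the main fit. The differences were negative for 8 of the 9, and the one with a positive value was *Krt7* (0.98 ± 1.28, adjusted p = 0.909). *Krt8* differed by -3.07 ± 0.86 (adjusted p = 0.138). The muscle libraries had 670 counts of the 10 genes in WT and 205 in KO, and the VAT libraries 84 and 112.

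For diet, SAT HFD over SAT chow gave negative differences for all 9 tested genes, and none passed the test, as was the case for 0% of all genes with edgeR (1354 genes had an unadjusted p under 0.05, and DESeq2 called 323). The median over the 9 genes was -3.47, beside -0.24 over all genes. Other gene lists had negative medians in the same comparison as well. These were -1.25 for the endothelial, -1.30 for the epithelial junction, -2.21 for the hormone-sensing luminal and -0.72 for the leukocyte genes. Positive medians were found for the stromal list (0.42), the epidermis list (0.29, 6 genes tested) and keratin genes outside the 10 (0.92, 4 tested). In the epithelial junction list, genes such as *Cldn3* and *Esrp1* were tested only through their SAT chow counts. The endothelial sum was 558.6 and 708.2 CPM on chow and 350.2 and 369.0 CPM on HFD, and its part in the difference was not tested. *Krt8* differed by -4.34 ± 0.82 (adjusted p = 0.214), *Krt19* by -3.47 ± 0.67 (adjusted p = 0.223) and *Krt18* by -3.05 ± 0.80 (adjusted p = 0.461). *Cldn4* had the smallest difference, -1.45 ± 0.90 (adjusted p = 0.751), and the unadjusted p was under 0.05 for 7 of the 9. The DESeq2 Wald test called *Krt7*, *Krt8*, *Krt18* and *Krt19* lower on HFD. *Krt5* and *Krt15*, at 0 on HFD, had mean levels at least 11.1-fold and 5.17-fold higher on chow. The 3 comparisons with SAT on chow share its 2 libraries.

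**Figure D3:**
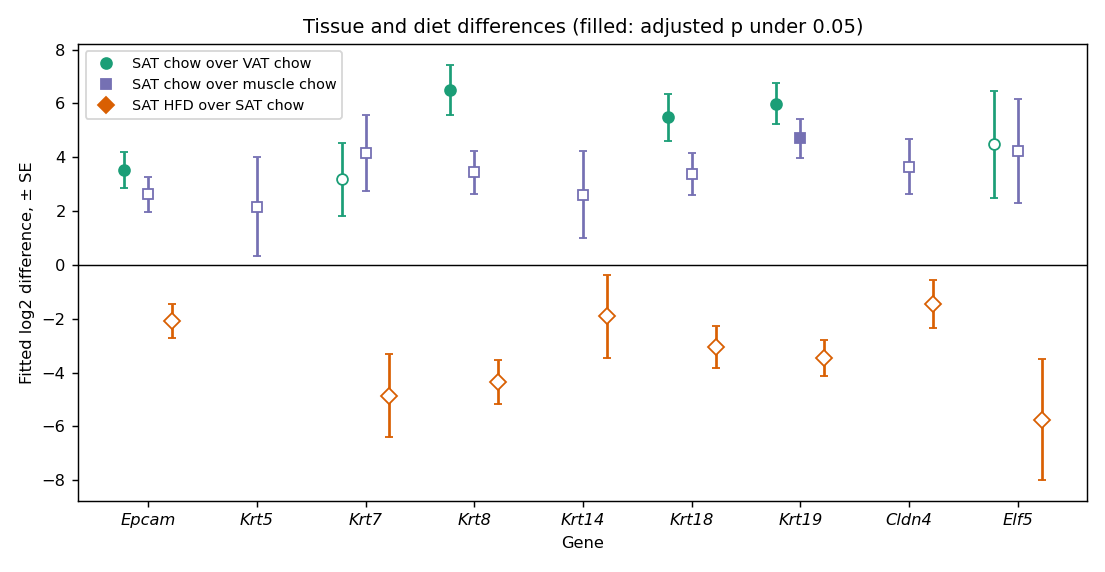
Fitted log2 difference (± SE, edgeR) of each tested gene for SAT chow over VAT chow (circles), SAT chow over muscle chow (squares) and SAT HFD over SAT chow (diamonds), filled where the adjusted p was under 0.05. Values are left out where the second tissue or diet, or SAT on HFD, had 0 counts in both libraries. All points of SAT chow over another tissue lie above 0 and all of HFD over chow below 0.

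Within the pairs, KO and WT differ by 1 library each, so ratios are given with a 95% counting interval and no test. In SAT on HFD, 3 of the 6 genes averaging 10 or more counts in the pair were higher in KO with the interval beyond 2-fold, and none was lower, where 12.7% of all such genes were higher and 11.1% lower. *Krt18* was 5.01-fold higher in KO (log2 2.31, interval 1.64 to 3.09), *Krt8* 4.27-fold (2.05, 1.09 to 3.28) and *Krt19* 3.20-fold (1.66, 1.04 to 2.38). *Cldn4* was 2.28-fold higher (1.19, 0.728 to 1.68). *Krt14* was 2.77-fold lower (-1.42, -2.72 to -0.269), and *Krt7*, with 15 counts in WT and 0 in KO, was at least 9.50-fold lower. The interval of *Epcam* held 0 (-0.36, -0.887 to 0.176), so in the SAT pair on HFD the simple keratins and *Epcam* did not move together.

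In SAT on chow, where the counts are highest, 1 of the 10 genes was higher and 2 were lower beyond 2-fold in KO, where 19% and 11.7% of all genes were. *Cldn4* was 2.59-fold higher in KO (log2 1.37, interval 1.18 to 1.57). *Elf5* was 12.2-fold lower (-3.53, -4.77 to -2.63). *Epcam* was 2.33-fold lower (-1.22, -1.42 to -1.03), and the bound of its interval was -0.921, -0.797 or -0.931 with DESeq2 size factors, library totals or upper quartile scaling. *Krt15* was 2.92-fold higher (1.52, 0.675 to 2.50), *Krt8* 1.29-fold higher (0.37, 0.249 to 0.484) and *Krt7* 1.25-fold higher (0.32, 0.0859 to 0.548). *Krt18* was 1.69-fold lower (-0.76, -0.875 to -0.638) and *Krt5* 1.60-fold lower (-0.67, -1.22 to -0.142). The intervals of *Krt19* (0.01, -0.100 to 0.125) and *Krt14* (0.17, -0.288 to 0.638) held 0. The partners *Krt8* and *Krt18* thus differed in opposite directions in this pair.

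In VAT, none of the 4 genes with enough counts was beyond 2-fold, where 2.4% of all genes were higher and 2.09% lower in the library labelled KO. *Krt7* was 1.84-fold lower (log2 -0.86, interval -1.72 to -0.0459), and *Elf5* had 4 counts against 0. The intervals of *Epcam*, *Krt8*, *Krt18* and *Krt19* held 0, and the remaining 4 genes were at 0 in both libraries.

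In muscle, all 9 genes with counts were lower in KO, of which 8 had an interval below 0. The share of all genes with an interval below 0 was not determined. Over genes averaging 10 or more counts in the pair, the median log2 ratio was -1.53 for those described here and -0.0053 for all genes. Of the 8 genes averaging 10 or more counts, 4 were lower beyond 2-fold and none was higher, where 2.05% of all genes were lower and 2.75% higher. *Krt5* and *Krt14* were both 6.90-fold lower (log2 -2.66, interval -4.75 to -1.30). *Cldn4* was 4.71-fold lower (-2.19, -3.31 to -1.30) and *Krt8* 3.17-fold lower (-1.65, -2.19 to -1.16). *Epcam* was 2.68-fold lower (-1.41, -1.98 to -0.894), *Krt19* 2.30-fold (-1.19, -1.94 to -0.508) and *Krt18* 1.88-fold (-0.91, -1.34 to -0.492). *Elf5*, with 9 counts in WT and 0 in KO, was at least 2.51-fold lower, and the interval of *Krt7* held 0 (-0.94, -2.08 to 0.0572). With library totals, *Krt8* was no longer beyond 2-fold. In the same pair the summed stromal markers were 880.4 CPM in WT and 1553 CPM in KO, and those of the basal and smooth muscle list 128.9 and 351.5 CPM. Both sums were also higher in KO in SAT on chow (stromal 962.8 and 3528 CPM, basal 57.1 and 141.5 CPM) and in the library labelled KO in VAT, and nearly level in SAT on HFD. Their part in the KO over WT ratios was not tested.

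**Figure D4:**
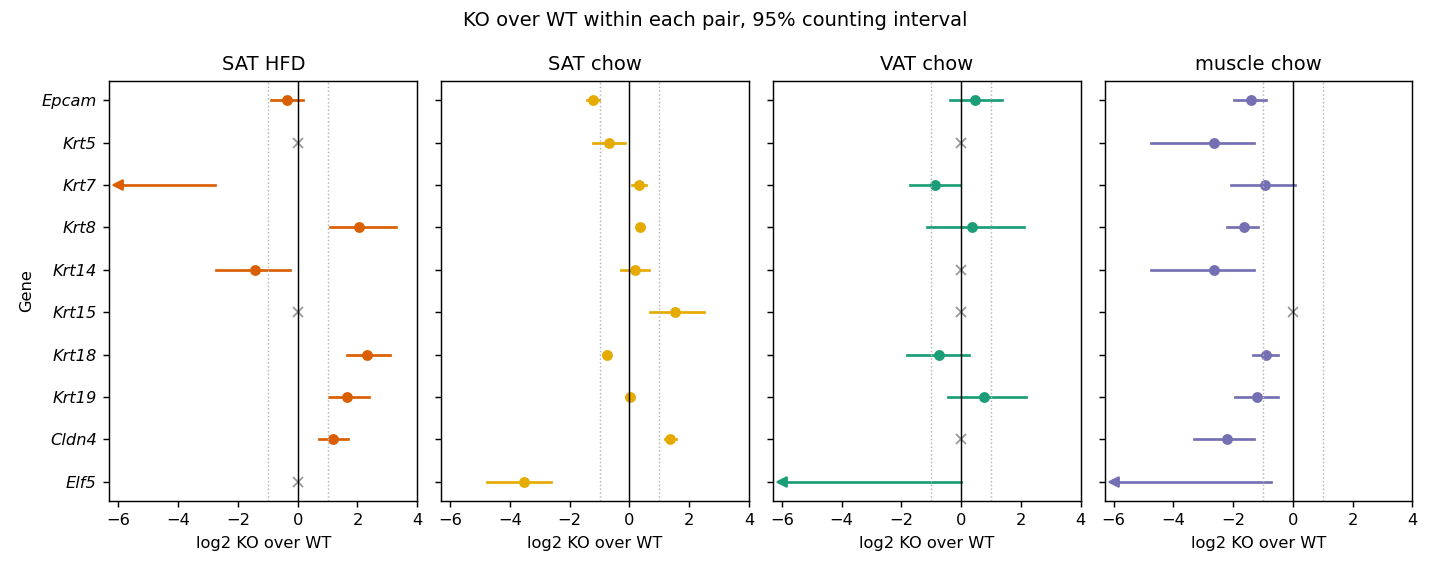
Ratio of KO to WT (log2) with the 95% counting interval for each gene in each pair, with dotted lines at 2-fold, an arrow where the KO library had 0 counts and a grey cross where both libraries had 3 counts or fewer. In muscle all intervals but that of *Krt7* lie below 0, whereas in SAT on HFD those of *Krt8*, *Krt18*, *Krt19* and *Cldn4* lie above 0.

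Across the 4 pairs, none of the genes passed the test of KO over WT. The edgeR test called 0 of the 9 tested genes, where 0.00589% of all genes (1 gene) were called, and DESeq2 also called 0 of the 9. *Elf5* was the single gene of the 9 with an unadjusted p under 0.05 (-4.38 ± 1.52, adjusted p = 0.9999), where 279 of all 16971 genes had one. The *Elf5* count was lower in KO in all 4 pairs, although the counts were 1 and 0 in SAT on HFD and 4 and 0 in VAT. The fitted differences were positive for *Krt8* (0.22 ± 0.58), *Krt19* (0.28 ± 0.48) and *Cldn4* (0.30 ± 0.82) and negative for the other 6. All 3 positive values turned negative without the SAT HFD pair.

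Related gene lists were read in the same libraries. Of 24 genes of epithelial junctions and identity, 19 were tested, and 1 was higher in SAT chow over VAT chow, *Cdh1*, the E-cadherin gene (3.89 ± 0.59, adjusted p = 0.0137), while none was lower. The median of the 19 was 2.15, beside 0.08 over all genes, and for 15 of the 24 both SAT chow libraries lay above all 6 others. Of all 16971 tested genes 4.28% did so, but the 15 include genes that were not tested, to which this share does not apply. The genes of the list with the highest level were *Cd24a*, *Spint2*, *Cdh1* and *St14*, of which *Cd24a*, also a leukocyte gene, had its highest counts in muscle (8706 and 7803). *Cdh1* had 587 and 373 counts in SAT on chow, 78 and 152 in SAT on HFD, 18 and 24 in VAT, and 265 and 88 in muscle. Its levels in VAT were the lowest, as for *Krt8*.

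Of 14 desmosome and hemidesmosome genes, all tested, none was higher and 1 was lower in SAT chow over VAT chow, the plakoglobin gene *Jup* (-2.63 ± 0.28, adjusted p = 0.005), which endothelial junctions also contain. *Plec*, *Dst*, *Itga6* and *Jup* were the highest of this list, and all 4 had at least 150 counts in every library. For 4 of the 14 genes both SAT chow libraries were above all others, as was the case for 4.28% of all 16971 tested genes.

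Among the mammary lists, the hormone-sensing luminal genes had 1 of 10 higher in SAT chow over VAT chow, the prolactin receptor *Prlr* (7.20 ± 1.10, adjusted p = 0.0142). *Prlr* had 565 and 1023 counts in SAT on chow, 7 and 117 in SAT on HFD, 3 and 4 in VAT, and 51 and 24 in muscle. *Gata3*, *Tnfsf11*, *Areg* and *Prom1* led that list. The first 3 had negative differences in this contrast, -1.31 ± 0.34, -1.59 ± 0.57 and -1.04 ± 0.76, and *Prom1* a positive one, 1.40 ± 0.79. None of these passed the test (adjusted p = 0.0693, 0.166, 0.499 and 0.379). Of the luminal progenitor and milk genes, 9 of 15 were tested, with *Glycam1*, known also from high endothelial venules, higher (10.3 ± 1.15, adjusted p = 0.0058) and *Xdh* lower (-2.09 ± 0.31, adjusted p = 0.0135). *Glycam1* had 1848 and 523 counts in SAT on chow, 32 and 90 in SAT on HFD, 1 and 0 in VAT, and 436 and 639 in muscle. The size of its fitted difference thus rests on VAT counts under the floor of 3. *Ltf*, a milk and neutrophil granule protein, had 87221 and 72648 counts in muscle against 483 and 152 in SAT on chow. The milk casein *Csn3*, chosen after its values were seen, had 345 and 104 counts in SAT on chow, 13 and 0 in muscle and 0 in the other 4 libraries. It did not pass the edgeR test in SAT chow over VAT chow (adjusted p = 0.0683). The milk genes *Csn1s1*, *Csn1s2a*, *Csn2*, *Lalba* and *Wap* had at most 15 counts in any library and were not tested.

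The basal and myoepithelial list had 7 of 10 genes tested, none higher and 1 lower, *Mylk* (-1.99 ± 0.42, adjusted p = 0.038). Its highest genes *Acta2*, *Jag2*, *Myh11* and *Mylk* are also expressed by smooth muscle and vessel cells. *Trp63*, the master factor of basal epithelium, had 1 to 24 counts in 7 libraries and 0 in SAT on HFD WT, with 5 and 14 in SAT on chow. Of 18 epidermis and hair follicle genes, 6 were tested and 1 was higher in SAT chow over VAT chow, *Sfn* (1.75 ± 0.40, adjusted p = 0.04999), and 4 to 14 of the 18 were at 0 in a library. *Sbsn*, *Perp* and *Krt10* were next in level after *Sfn*, with at most 88 counts in a library.

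Mesothelium, which covers VAT and is known to carry simple keratins, was marked by 9 genes with a summed level of 36.3 to 43.1 CPM in VAT, 2.85 to 10.8 CPM in SAT and 21.7 to 41.7 CPM in muscle. None of the 4 tested genes passed in SAT chow over VAT chow. *Cldn15* and *Gpm6a* led the list, followed by *Wt1* (61 and 89 counts in VAT, 0 in all 4 SAT libraries) and *Upk3b* (34 and 54 in VAT, 0 to 2 in SAT). The VAT libraries with these markers had the lowest summed level of the 10 epithelial genes, and the part of mesothelial cells in the *Krt7*, *Krt18* and *Epcam* counts there was not tested. Of the stromal list, 0 of 10 genes were called in SAT chow over VAT chow, with *Col3a1*, *Dcn*, *Col1a2* and *Col1a1* highest.

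The endothelial list went the other way, with 8 of 12 genes lower in SAT chow than in VAT chow and none higher, and a median of -2.13. Of all 16971 genes, 561 were called lower in this contrast and 296 higher. *Pecam1*, *Cdh5*, *Vwf* and *Flt1* were its highest genes. Of the leukocyte list, 5 of 10 genes were higher and 2 lower in SAT on chow, and of the dendritic and Langerhans list 1 of 8 was higher and 1 lower. These lists moved with the same contrast as the keratins, and their part in it was not tested. The medians of the other lists in SAT chow over VAT chow were 0.89 for the desmosome, 1.47 for the hormone-sensing, 0.08 for the progenitor and milk, -1.17 for the basal, 0.59 for the epidermis, -4.12 for the mesothelial, -0.14 for the stromal, -0.31 for the dendritic and 1.90 for the leukocyte genes. Among the tested genes of these lists, some, such as *Pkp1* and *Csn3*, reached the limit only through SAT on chow. No gene of any list was called in SAT HFD over SAT chow or in KO over WT across the pairs.

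Other keratin genes were mostly low or absent. The table held 55 genes with a keratin name, of which 7 are among the 10 genes described, and 34 had at least 1 count. The 55 and the 34 include the *Krt8* pseudogene. Between 11 and 22 keratin genes were above 3 counts in a library, with the 2 highest numbers, 19 and 22, in SAT on chow. Outside the 7, only 4 keratin genes were tested, and none was called in SAT chow over VAT chow. *Krt80* had 909 and 1326 counts in VAT, 284 and 172 in SAT on chow, and 397 and 215 in muscle, and was thus highest where *Krt8* was lowest. *Krt83* was highest in muscle with 265 and 230 counts, *Krt222* and *Krt10* had at most 59 and 34 counts, and *Krt17*, which is close in sequence to *Krt14*, had 34 and 0 counts in SAT on HFD, 25 and 4 in SAT on chow and 0 elsewhere. In SAT on HFD WT, *Krt17* thus had more counts than *Krt14* (16). How reads shared between such keratins were counted is not given in the sources used here.

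The genes most like the mean pattern of the 9 tested genes, by Pearson correlation of log2 CPM over the 8 libraries, were *St14* (r = 0.963), *Nt5dc1* (0.959), *Paip2* (0.957), *Srsf7* (0.956), *Esrp1* (0.943), *Xrn2* (0.943), *Retreg1* (0.943), *Pkp1* (0.942), *Fer1l4* (0.942) and *Cldn3* (0.942). The points share libraries of 4 tissues and diets and are not replicates. *Esrp1*, *Pkp1*, *Fer1l4* and *Cldn3* reached the limit on mean counts only through SAT on chow. Their likeness to the pattern is in that part set by the limit. *Esrp1*, an epithelial splicing regulator, had 75 and 60 counts in SAT on chow, 6 and 0 in muscle and 0 in the other 4 libraries. *Cldn3*, a claudin, had 183 and 95 counts in SAT on chow, 12 and 0 in muscle and 0 in the other 4, and *Pkp1*, a desmosomal plakophilin, had 55 and 38, 6 and 0, and 0 in the other 4. *Srsf7*, a splicing factor of all cells, had 1410 to 4928 counts in every library, so likeness in pattern here included genes with no epithelial restriction.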

How the data were processed

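RNAseq counts of 8 libraries of GFP+ cells were analysed, 1 library per genotype in each of 4 tissues and diets. The deposited values are raw counts per gene, as whole numbers with no normalization, with gene coordinates and exon lengths (in bases) in the same table. RNA isolation used a spin-column kit, and libraries a SMARTER mRNA kit, per the labels, while the submitters' processing notes name HISAT2 2.0.5 and the builds GRCm38 and mm10. The counting program and the use of strand are not given in the sources used here. All value columns were matched to their sample by tissue, diet and genotype in the column names.

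CPM were computed from the deposited counts with TMM factors from edgeR 4.0.16 (R 4.3.3) over the 16971 genes averaging 10 or more counts. One quasi-likelihood fit with robust dispersions over all 8 libraries held tissue and diet as a block and genotype as a term, with Benjamini-Hochberg adjustment over all tested genes at 0.05. With 3 residual degrees of freedom per gene and WT and KO as the 2 samples of a tissue, p-values measure only the spread between these libraries. Within a pair, the log2 ratio used a prior count of 0.5 and an exact conditional binomial (Clopper-Pearson) interval at 95%, which covers counting error only, and a gene was beyond 2-fold where that interval was. A library at 0 was replaced by 3 counts for bounds, per library. Both procedures were tested on simulated data. Alternatives were DESeq2 1.42.0 size factors and Wald test, library totals, upper quartile scaling, all genes with at least 1 count, no genotype term, no block, a prior count of 5, a mean of at least 50 counts and leaving out each library or pair.

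The 10 genes and the gene lists were chosen with earlier results of these data known, so no p-value was adjusted over a list alone. Genes named were the 10, Tert, at most 4 of each list by mean CPM over the 8 libraries, up to 5 other keratin genes by mean count, the 10 genes most correlated with the mean log2 CPM of the tested members, and, chosen after their values were seen, the genes called in a list, Cd207, Trp63, Csn3 and the milk genes named beside it. Motifs were searched in promoters from RefSeq (GRCm38.p6). Protein sequences were not used here.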

Additional observations from a re-analysis of the deposited data

Results flagged for a closer look

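Of the 10 genes, 5 had a counting interval above 0 in one pair and below 0 in another, which is what drew attention to them. The share of all genes with such opposite intervals was not determined, so the number is not a trait particular to these genes. The intervals cover counting error only. The difference between pairs was not tested, since each pair holds 1 library per genotype. *Krt8* had a log2 ratio of KO to WT of 2.05 in SAT on HFD and 0.37 in SAT on chow, against -1.65 in muscle. *Krt18* had 2.31 in SAT on HFD, against -0.76 in SAT on chow and -0.91 in muscle. *Krt19* had 1.66 in SAT on HFD and -1.19 in muscle. *Cldn4* had 1.19 in SAT on HFD and 1.37 in SAT on chow, against -2.19 in muscle. *Krt7* had 0.32 in SAT on chow, against -5.48 in SAT on HFD (15 counts and 0, so that the value depends on the prior count) and -0.86 in VAT. In VAT, the labels were neither borne out nor contradicted by *Tert*, whose counting interval held 0.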

How the results depend on the processing

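The 5 calls in SAT chow over VAT chow and that of *Krt19* over muscle remained under each of the 3 other scalings, without the genotype term, with all genes and with DESeq2. The number of genes called over the whole table moved by more than 1.5 times under some settings. For KO over WT (1 gene) it was 41 with all genes with at least 1 count, 21 with the DESeq2 Wald test, 0 with no tissue block and 0 to 2 leaving out a pair. For SAT chow over VAT chow (857) it was 2116 with all genes, 2334 with DESeq2 and 93 to 3449 leaving out a library. For SAT chow over muscle chow (213) it was 971, 1014 and 37 to 1761, and 339 without the genotype term. For VAT chow over muscle chow (328) it was 1166, 1262 and 41 to 75, and 542 without the genotype term. For SAT HFD over SAT chow (0) it was 289, 323 and 0 to 308. The block is the labelled tissue and diet, and removing it called none of the 10 genes.

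In KO over WT, *Krt18* (-0.12) was 0.013 with library totals. Leaving out a pair gave -0.81 to 0.18 for *Krt18* (0.15 without SAT on chow, 0.09 without VAT), -0.37 to 0.90 for *Krt8*, -0.20 to 0.76 for *Krt19* and -0.43 to 1.24 for *Cldn4* (-0.23 without SAT on HFD). In VAT chow over muscle chow, *Elf5* (-0.24) ranged from -1.44 to 1.17 leaving out a library, with 0.0083 without the KO library of VAT. Genes beyond 2-fold with a mean of at least 50 counts numbered 513 higher and 465 lower in SAT on HFD, 1804 higher in SAT on chow, 144 and 66 in VAT, and 144 and 159 in muscle. With library totals 1133 genes were lower in SAT on chow, and the share of higher genes among those beyond 2-fold was 77.5% there and 70.2% in muscle, against 62.0% and 57.3% with TMM. The cause was not tested. VAT, with 84 and 112 counts of the 10 genes, limits what could be detected there.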
